A study of Mus musculus with 40 samples.

Results

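Tubulin mRNAs were followed in liver as 9 genes, the alpha-tubulins Tuba1a, Tuba1b, Tuba1c, and Tuba4a and the beta-tubulins Tubb2a, Tubb2b, Tubb4b, Tubb5, and Tubb6. They were taken by symbol from the deposited table of counts per gene, and all 9 were found among its 55487 genes. The livers came from female C57BL/6JBomTac mice. HNKO mice (Nampt fl/fl carrying Alb-Cre+/-, named KO in the sample labels) lack Nampt in hepatocytes, because the albumin promoter drives the recombinase there. WT littermates carried the floxed alleles alone. Mice of 9 weeks received a purified control diet (PD) over 3, 6, 12, or 21 days, numbers that the labels give as age, and total RNA depleted of rRNA was sequenced in 40 libraries, 1 per mouse. The libraries used were 5 WT and 5 HNKO at day 3, 4 and 5 at day 6, 5 and 6 at day 12, and 5 and 3 at day 21, after 2 HNKO libraries of day 21 that the labels describe as failed in quality control were left out.

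These 38 libraries held 16151037 to 64181492 counts (median 26466478.5). Nampt ranged from 5.84 to 7.28 log2 CPM in WT and from 4.92 to 6.36 in HNKO libraries. Summed hepatocyte markers were at 107000 to 162000 CPM in WT and 68400 to 137000 in HNKO livers, and no cell type list had a gene without counts in all libraries. CPM give the counts of a gene relative to the library total after scaling by TMM, and log2 CPM were computed with a prior count of 2. HNKO and WT were compared with edgeR's quasi-likelihood test on the counts, p-values were adjusted over the 20297 genes tested (Benjamini-Hochberg), and a gene with an adjusted p under 0.05 is said to be called. In whole liver, more cells of a type and more RNA per cell cannot be told apart.

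Alpha- and beta-tubulin pair into the heterodimer from which microtubules are built, the tracks for vesicle and organelle transport, the scaffold of the mitotic spindle, and the core of cilia. Mammals make several isotypes of each from separate genes, and in hepatocytes the microtubules carry lipoproteins and plasma proteins to the cell surface. Free tubulin limits the stability of tubulin mRNAs during their translation, through the factor Ttc5, which recognises the first residues of the nascent chain. The start of the coding sequence is therefore shown for 8 of the 9 tubulins, all but Tubb6, as 30 bases from GENCODE release M21 transcripts, 5′ to 3′, with the first 4 codons in capitals. These encode methionine, arginine, and glutamate in every isotype shown, then cysteine in the alpha-tubulins and isoleucine in the beta-tubulins.

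Tuba1a: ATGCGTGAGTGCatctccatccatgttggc
Tuba1b: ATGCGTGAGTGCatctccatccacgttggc
Tuba1c: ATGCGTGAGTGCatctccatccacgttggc
Tuba4a: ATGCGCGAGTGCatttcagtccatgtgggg
Tubb2a: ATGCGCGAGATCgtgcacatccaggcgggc
Tubb2b: ATGCGAGAGATCgtgcacattcaggcgggc
Tubb4b: ATGAGGGAGATCgtgcacctgcaggctggg
Tubb5: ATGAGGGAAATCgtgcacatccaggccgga

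The isotypes also resemble each other over their whole length, which bears on the counting of 51-base reads. Tuba1a and Tuba1b differ at 2 residues (99.56% identical), and Tubb2a and Tubb2b at 2 (99.55%), whereas Tuba1a and Tuba4a differ at 19 and Tubb5 and Tubb6 at 40. The last 63 bases of the coding sequence, which encode the acidic tail where isotypes usually differ most, are shown for the beta pair with the 3 differing bases in capitals.

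Tubb2a: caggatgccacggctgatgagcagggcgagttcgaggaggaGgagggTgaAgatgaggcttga
Tubb2b: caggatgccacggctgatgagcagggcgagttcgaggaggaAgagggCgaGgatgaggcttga

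Of all 51-base stretches in its transcripts, Tuba1a shared 75.4% with other annotated genes, Tuba1b 74.9%, Tuba1c 52.5%, Tubb2a 49.3%, Tubb4b 40.8%, Tubb2b 36.6%, and Tuba4a 35.3%. Tubb5 shared 0.03% and Tubb6 0%. The text of the methods does not give how a fragment that fits several genes was counted, so the levels of the Tuba1 genes, of Tubb2a, of Tubb2b, and of Tubb4b, which resembles 2 pseudogenes, are uncertain in this respect, and those of Tubb5 and Tubb6 are not. Nearly all stretches shared by Tuba4a lie where its exons overlap those of Stk16, a kinase gene on the opposite strand, over 1379 bases. How strand was used in counting is not given in the sources used here.

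Over the mean of the days Tuba1a rose in HNKO livers by 0.98 on the log2 scale, Tubb6 by 0.62, and Tubb5 by 0.49, while Tuba4a fell by 0.44. Tuba1b, Tuba1c, Tubb2a, and Tubb4b were not called in this comparison. These 4 of 8 called stand beside 36.4% called among all 20297 genes tested, so that calls in this comparison were common among genes at large. Tubb2b, the last of the 9, passed the filter on low counts only through HNKO livers, so that it is described by its counts and its calls are given only where the family is counted. The days are taken in turn below, and the plot of levels by day gives every library.

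**Figure D1:**
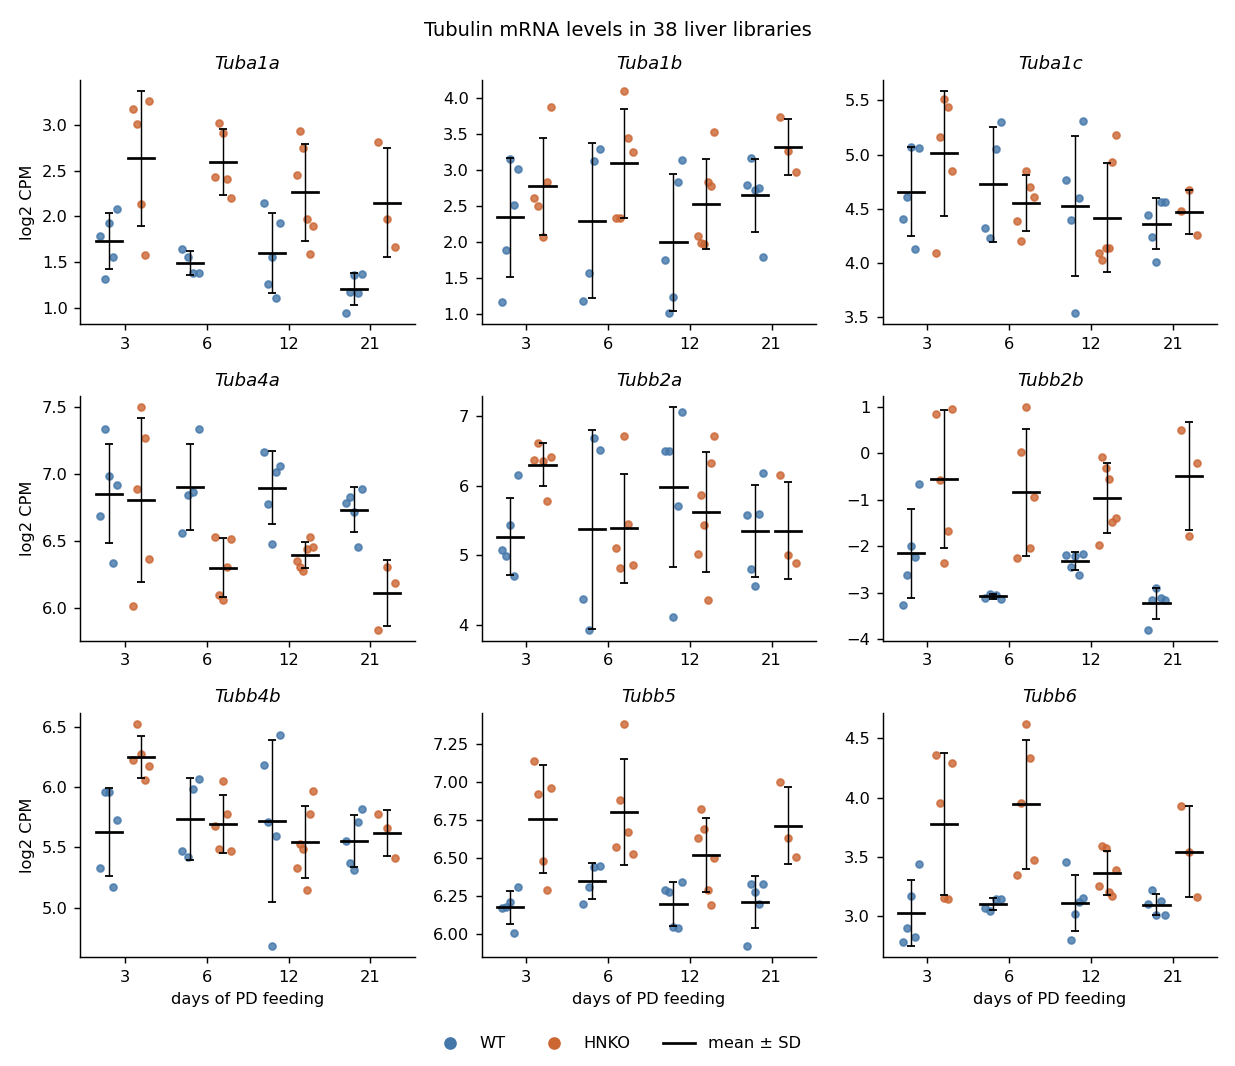
Level of each tubulin (log2 CPM) against days of PD feeding, 1 point per library, WT in blue and HNKO in orange, with the mean and SD of each group in black. Tuba1a, Tubb2b, Tubb5, and Tubb6 of all 5 HNKO livers lie above the 4 WT livers at day 6, while Tubb2a spreads over 3.93 to 7.06 in WT livers alone.

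Tubb5 (ENSMUSG00000001525.10) is the widely expressed beta-tubulin of dividing and other non-neuronal cells, with its gene at 35833921 to 35838306 of chromosome 17 (GRCm38, minus strand). In WT livers it held to a narrow range, at 6.17, 6.18, 6.21, 6.01, and 6.31 log2 CPM at day 3 and 6.20, 6.31, 6.44, and 6.45 at day 6. The HNKO livers had 7.14, 6.92, 6.48, 6.29, and 6.96 at day 3 and 6.57, 6.88, 7.38, 6.67, and 6.53 at day 6. At day 3 a single HNKO liver, library 22, was inside the WT range, and at day 6 none was. Tubb5 rose by 0.62 ± 0.15 (SE of the fit) on the log2 scale at day 3 and by 0.49 ± 0.16 at day 6, for which edgeR gave an adjusted p of 0.0141 and 0.0338. At day 12 WT livers were at 6.29, 6.28, 6.05, 6.04, and 6.34, and HNKO livers at 6.63, 6.82, 6.69, 6.29, 6.19, and 6.50, so that the groups overlapped. The difference of 0.33 ± 0.14 was not called (edgeR, adjusted p = 0.137). At day 21 the 3 HNKO livers, at 7.0, 6.63, and 6.51, were above all 5 WT livers, at 5.92, 6.33, 6.28, 6.20, and 6.33, yet the difference of 0.51 ± 0.17 was not called (edgeR, adjusted p = 0.0818). Over the mean of the days Tubb5 in HNKO was 1.4-fold of WT (edgeR, adjusted p = 7.32e-06). The call at day 3 was lost without HNKO library 2 or 23, and that at day 6 without HNKO library 7 or 29 or WT library 8 or 10. With only the groups compared in the fit, the call at day 3 was kept and that at day 6 was lost (edgeR, adjusted p = 0.0971).

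Tubb6 (ENSMUSG00000001473.7), a divergent beta-tubulin found at low levels in many non-neuronal tissues, was called at both early days too. WT livers had 2.78, 2.90, 3.17, 2.82, and 3.44 log2 CPM at day 3, and HNKO livers 4.36, 3.95, 3.15, 3.14, and 4.29, so that 3 of 5 HNKO livers were above the WT range and libraries 4 and 22 were within it. At day 6 the 4 WT livers, at 3.07, 3.04, 3.14, and 3.14, were all below the 5 HNKO livers, at 3.35, 3.95, 4.62, 4.33, and 3.47. Tubb6 rose by 0.84 ± 0.21 on the log2 scale at day 3 and by 0.93 ± 0.23 at day 6 (edgeR, adjusted p = 0.0217 and 0.00664). Its difference was 0.24 ± 0.20 at day 12, when HNKO livers were at 3.17 to 3.59 (median 3.32), and 0.49 ± 0.24 at day 21 (edgeR, adjusted p = 0.491 and 0.284), with 3.93, 3.54, and 3.16 in HNKO livers against 3.01 to 3.22 in WT. Within HNKO livers Tubb6 was lower at day 12 than at day 6, by 0.66 ± 0.20 on the log2 scale (edgeR, adjusted p = 0.0455), in a comparison in which 5.68% of all genes were called. The call at day 3 was lost without any 1 of HNKO libraries 2, 3, and 23 and WT libraries 5 and 25, and the call at day 6 was kept in each omission. With only the groups compared, the adjusted p at day 3 was 0.0953 (edgeR).

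Tuba1a (ENSMUSG00000072235.6; chromosome 15, 98949837 to 98953703, minus strand) is the main alpha-tubulin of developing neurons and is low in adult liver. Its levels in WT livers were 1.78, 1.31, 1.93, 1.55, and 2.08 log2 CPM at day 3, on 53 to 104 counts per library. In HNKO livers they were 3.18, 3.01, 2.14, 1.58, and 3.27, on 96 to 248 counts. Of the 5 HNKO livers, 4 were above every WT liver, and library 22 was not. At day 6 the groups did not overlap, with 1.64, 1.56, 1.38, and 1.38 in WT and 2.43, 3.03, 2.92, 2.41, and 2.20 in HNKO livers. At day 21 they did not overlap either, with 0.94, 1.17, 1.36, 1.16, and 1.37 in WT against 2.82, 1.97, and 1.66 in HNKO, while at day 12 the WT livers reached 2.15 and 3 of 6 HNKO livers, at 1.97, 1.59, and 1.89, were below that. Tuba1a rose by 1.03 ± 0.28 at day 3 and by 1.16 ± 0.30 at day 6 on the log2 scale (edgeR, adjusted p = 0.0293 and 0.00995). The differences of 0.70 ± 0.27 at day 12 and 1.04 ± 0.32 at day 21 were not called (edgeR, adjusted p = 0.0996 and 0.0589). The mean over the days was 1.98-fold (edgeR, adjusted p = 3.22e-06). The call at day 3 was lost without any 1 of HNKO libraries 2, 3, and 23 and WT libraries 5 and 25, whereas that at day 6 was kept in each omission. With the failed libraries included, the adjusted p at day 3 was 0.0693, and with only the groups compared it was 0.09 (edgeR).

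Tubb2b (ENSMUSG00000045136.6; chromosome 13, 34126748 to 34130466, minus strand), a beta-tubulin best known from the brain, was near the limit of detection in WT livers. The deposited counts were 1, 2, 3, 4, and 14 in WT against 48, 14, 3, 8, and 43 in HNKO livers at day 3, and 1, 1, 1, and 1 against 3, 28, 82, 3, and 16 at day 6. They were 4, 3, 3, 3, and 5 against 6, 17, 23, 17, 9, and 11 at day 12, and 0, 1, 4, 1, and 1 against 41, 5, and 26 at day 21. On the scale of log2 CPM the groups did not overlap at days 6, 12, and 21. Pooled over libraries, the ratio of HNKO to WT CPM was 4.53 on day 3 (95% interval 2.90 to 7.36, 116 and 24 counts) and 19.4 on day 6 (7.42 to 72.4, 132 and 4 counts). For day 12 this ratio was 3.63 (2.16 to 6.43, 83 and 18 counts), and for day 21 it was 19.8 (9.14 to 51.0, 72 and 7 counts). These exact intervals cover counting error only. Single libraries moved the ratios, to 8.67 without WT library 26 at day 3, which held 14 of the 24 WT counts, to 10.4 without HNKO library 29 at day 6, and to 13.2 without HNKO library 37 at day 21. The filter asked for about 0.378 CPM in a set number of libraries, a level that 11 of 19 HNKO and 1 of 19 WT libraries reached, and the other 8 tubulins were above it in all 38. Fitted fold changes of Tubb2b depend on the prior count and are not given as numbers. The plot of fold changes by day draws them with this limit.

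Tuba4a (ENSMUSG00000026202.13; chromosome 1, 75214228 to 75219865, minus strand) is the alpha-tubulin whose gene does not encode the terminal tyrosine that other alpha-tubulins carry, and it was the most abundant alpha-tubulin here. It went the other way. At day 6 the WT livers, at 6.56, 6.85, 6.87, and 7.34 log2 CPM, were all above the HNKO livers, at 6.53, 6.10, 6.06, 6.31, and 6.52. Tuba4a fell by 0.62 ± 0.20 on the log2 scale (edgeR, adjusted p = 0.041). At day 12 WT livers had 7.17, 6.78, 6.48, 7.02, and 7.06, and HNKO livers 6.28 to 6.53 (median 6.40), with 5 of 6 below every WT liver, a difference of -0.53 ± 0.18 (edgeR, adjusted p = 0.0695). At day 21 the 3 HNKO livers, at 5.84, 6.31, and 6.19, were below all 5 WT livers, at 6.46 to 6.89, a difference of -0.62 ± 0.23 (edgeR, adjusted p = 0.127). At day 3 the HNKO livers were spread over 6.02 to 7.5, on both sides of the WT livers at 6.34 to 7.34, and the difference was 0.02 ± 0.19 (edgeR, adjusted p = 0.975). The mean over the days was 0.739-fold (edgeR, adjusted p = 0.000937). The call at day 6 lay close to the threshold and was lost when any 1 of 9 libraries was left out, WT libraries 10, 27, and 28 and HNKO libraries 7, 29, and 30 of that day and HNKO libraries 35, 38, and 40 of other days. It was lost too with no filter beyond 1 count (adjusted p = 0.0702) and with the failed libraries included (adjusted p = 0.0547, edgeR). Stk16, which overlaps Tuba4a, was not called at any day (-0.22 to -0.32 on the log2 scale) and was lower by 0.25 over the mean of the days (adjusted p = 0.00133, edgeR), and its deviations within groups had r = 0.14 with those of Tuba4a over 38 libraries.

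The other 4 tubulins were not called between genotypes at any day. Tubb4b (ENSMUSG00000036752.4; chromosome 2, 25222160 to 25224702, minus strand), a broadly expressed beta-tubulin that is also a main isotype of motile cilia, was at 5.33, 5.96, 5.96, 5.17, and 5.73 log2 CPM in WT and at 6.22, 6.52, 6.27, 6.06, and 6.17 in HNKO livers at day 3. All 5 HNKO livers were thus above the WT livers, with a difference of 0.59 ± 0.21 that was not called (edgeR, adjusted p = 0.0866). At the later days the differences were -0.06, -0.27, and 0.06 and the groups overlapped. Tubb2a (ENSMUSG00000058672.7; chromosome 13, 34074274 to 34078007, minus strand), a major beta-tubulin of neurons that is also found elsewhere, differed by 0.97 ± 0.49, -0.26 ± 0.52, -0.44 ± 0.46, and 0.01 ± 0.56 at days 3, 6, 12, and 21 (adjusted p = 0.257, 0.805, 0.601, and 0.993, edgeR). At day 3, 4 of 5 HNKO livers were above every WT liver. Its standard errors were over 3 times those of Tubb5, and both genotypes spread widely. At day 6 the WT livers were at 4.37, 3.93, 6.69, and 6.51, and at day 12 at 6.50, 6.50, 4.11, 5.71, and 7.06. Tuba1c (ENSMUSG00000043091.9; chromosome 15, 99029891 to 99038110, plus strand), an alpha-tubulin of many tissues, differed by 0.39, -0.23, -0.14, and 0.11 (SE 0.26 to 0.31, adjusted p = 0.424, 0.666, 0.791, and 0.907, edgeR), with 3.54 to 5.31 in WT and 4.03 to 5.51 in HNKO livers over all days.

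Tuba1b (ENSMUSG00000023004.8; chromosome 15, 98931425 to 98934565, minus strand), the alpha-tubulin of most dividing cells, was higher in HNKO on average at each day, by 0.41, 0.68, 0.40, and 0.65 on the log2 scale, but with standard errors of 0.43 to 0.50 and no call (adjusted p = 0.65, 0.385, 0.604, and 0.532, edgeR). Its level moved with the library number in the labels. The numbers run through the days in an earlier series, 1 to 21, and a later one, 22 to 41. In the 18 libraries used of the earlier series Tuba1b was at 1.02 to 3.17 log2 CPM (median 2.03), with WT libraries 19, 20, and 21 of day 21 highest, at 2.79, 3.17, and 2.73. In the 20 of the later series it was at 1.80 to 4.10 (median 3.13), with WT library 41 lowest. Within the earlier series HNKO livers were higher by 0.87, 0.95, and 0.68 at days 3, 6, and 12, and within the later one by 0.46, 0.38, 0.06, and 1.04 at days 3, 6, 12, and 21, each on 2 or 3 libraries a genotype. No HNKO library of day 21 in the earlier series was used. What the series stands for is not given in the labels, and with the series as a covariate the differences were 0.67, 0.66, 0.39, and -0.17 at days 3, 6, 12, and 21, none of them called. Tubb5 did not step in this way, with a median of 6.32 in the earlier and 6.39 in the later series.

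**Figure D2:**
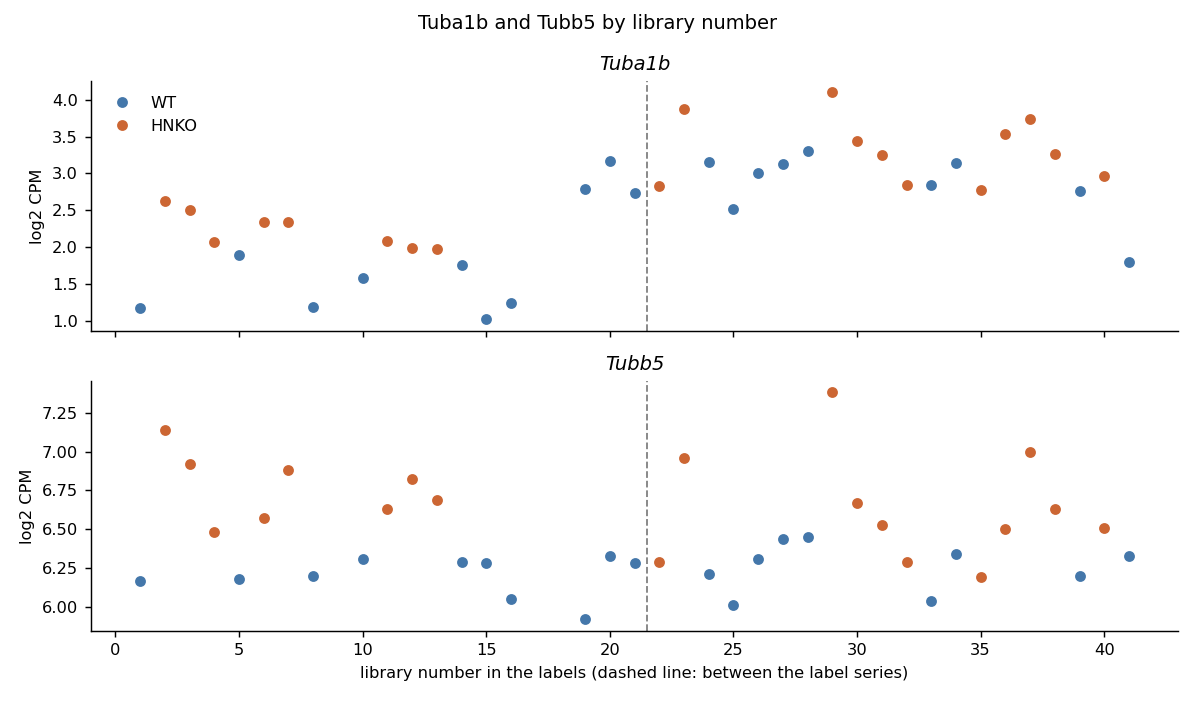
Level (log2 CPM) of Tuba1b, above, and Tubb5, below, against the library number in the labels, 1 point per library, WT in blue and HNKO in orange, with a dashed line between the series 1 to 21 and 22 to 41. Tuba1b has a median of 2.03 before the line and 3.13 after it, while Tubb5 differs between genotypes on both sides.

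Counted by day over the 8 tubulins other than Tubb2b, 3 were called at day 3, all higher in HNKO (Tuba1a, Tubb5, and Tubb6), beside 4.66% of all genes tested. At day 6 there were 4, with Tuba1a, Tubb5, and Tubb6 higher and Tuba4a lower, beside 12.8%. Neither at day 12 nor at day 21 did edgeR call any, beside 7.82% and 3.12%. With Tubb2b, which edgeR called at days 6 and 21, the counts were 3, 5, 0, and 1 of 9. DESeq2 called 4, 5, 0, and 2 of 9, beside 7.04%, 14.4%, 10.1%, and 4.90% of all genes. Tubb2b was among those at days 3, 6, and 21. It passed the filter only through HNKO livers, so its calls are not taken as results. At day 12, 4 of 9 (Tuba1a, Tuba4a, Tubb2b, and Tubb5) had an unadjusted p under 0.05 by edgeR, as did 24.5% of all genes. At day 21 the same 4 of 9 had one, as did 18% of all genes. At day 3 no tubulin was called without HNKO library 2 or 23, and only Tubb5 without HNKO library 3 or WT library 5 or 25. At day 6 the calls of Tuba4a and Tubb5 were both lost without HNKO library 7 or 29 or WT library 10. At day 12 Tuba4a was called without HNKO library 2 or 4 of day 3. At day 21 Tuba1a was called without HNKO library 22, 23, 29, 35, or 40, Tubb5 without library 29, and Tubb2b was not called without library 37. Apart from Tubb2b, the libraries of the genotypes did not overlap for Tubb4b at day 3, beside 4.11% of all genes. At day 6 this held for Tuba1a, Tuba4a, Tubb5, and Tubb6 (12.8% of all genes) and at day 12 for no tubulin (4.79%). At day 21 it held for Tuba1a, Tuba4a, and Tubb5 (13.9%). Tubb2b, which passed the filter only through HNKO livers, did not overlap at the last 3 days. No gene of the 20297 was called for a genotype by day interaction (0.0%; edgeR), against 966 genes at an unadjusted p under 0.05 and 16 called by DESeq2. Among tubulins 1, Tubb4b, had an unadjusted p under 0.05 and DESeq2 called 0, so the difference between days 6 and 12 in the counts above is not shown to be one between the genotype effects.

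**Figure D3:**
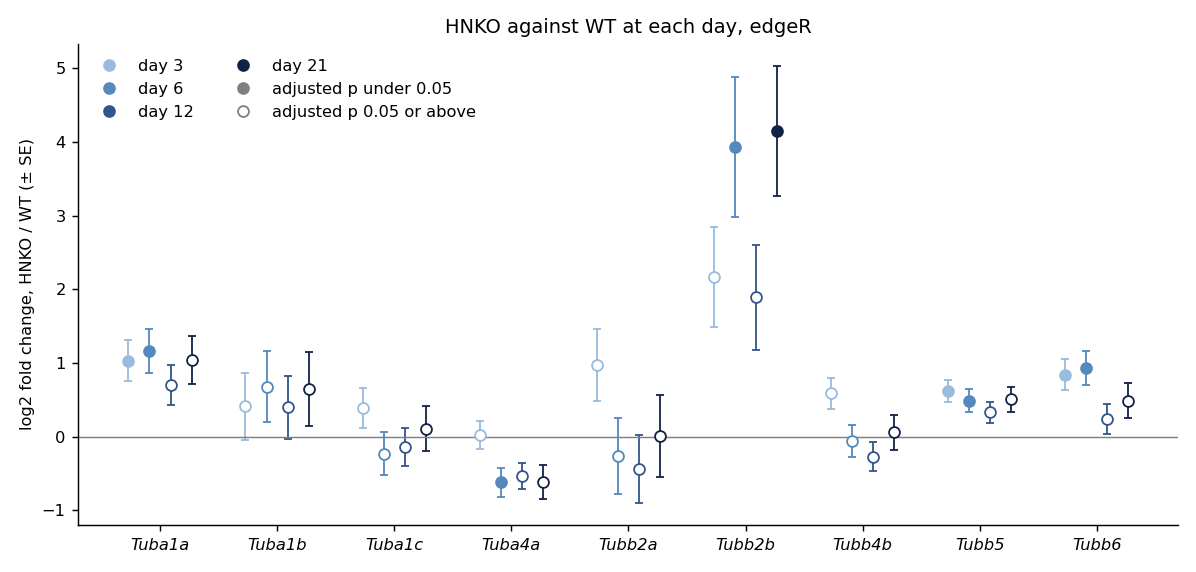
Log2 fold change of HNKO against WT for each tubulin at days 3, 6, 12, and 21 (light to dark), with the SE of the edgeR fit as bars. Filled points have an adjusted p under 0.05: Tuba1a, Tubb5, and Tubb6 at days 3 and 6, Tuba4a at day 6, and Tubb2b at days 6 and 21. Tubb2b passed the filter on low counts only through HNKO livers, so its filled points are not taken as results.

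Over days of feeding within WT livers no tubulin was called (5.84% of all genes were), with 0 at an unadjusted p under 0.05 by edgeR and 0 by DESeq2, and adjusted p-values from 0.329 to 0.993. Within HNKO livers 7.9% of all genes and 1 tubulin, Tuba4a, were called (edgeR, adjusted p = 0.0468), and the count was 0 in 25 of the 38 fits that each left out 1 library. Its level in HNKO livers was lower than at day 3 by 0.59, 0.51, and 0.78 on the log2 scale at days 6, 12, and 21, none of which was called on its own (adjusted p = 0.153, 0.126, and 0.0578, edgeR). Tubb4b and Tubb6 had adjusted p-values of 0.0626 and 0.105 for the day effect in HNKO.

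To compare isotypes with each other, CPM were divided by the length of the merged exons of each gene in kb. On this scale of CPM per kb, the levels in WT livers were 34 ± 21.1 (SD, n = 19) for Tubb2a, 31.6 ± 6.08 for Tuba4a, 25 ± 6.88 for Tubb4b, and 22.6 ± 2.19 for Tubb5. Tuba1c followed with 10.8 ± 3.41, then Tubb6 with 3.47 ± 0.454, Tuba1b with 3.02 ± 1.48, Tuba1a with 1.58 ± 0.40, and Tubb2b with 0.0463 ± 0.0529. Of the 8 pairs of neighbours in this order the ranges over libraries separated 3, Tubb5 from Tuba1c, Tuba1c from Tubb6, and Tuba1a from Tubb2b, and the other ranges overlapped. Taken library by library, Tuba4a was above Tubb4b in 17 of 19 WT livers (mean log2 ratio 0.37, SD 0.28), while the remaining 4 pairs kept their order in 8 to 13 of 19. Part of this order rests on the length used. With the number of 51-base stretches found in no other gene as the length, Tuba1c was at 23.2 (10.9 to 37.3) and Tubb5 at 22.4 (18 to 26) CPM per kb in WT livers, which overlapped, and Tuba1b at 12 and Tuba1a at 6.59 were above Tubb6 at 3.54. In HNKO livers the order was Tubb2a (36.4 ± 17.8, SD, n = 19), Tubb5 (31.7 ± 7.07), Tubb4b (27.1 ± 7.10), Tuba4a (24.4 ± 8.27), Tuba1c (11.3 ± 3.93), Tubb6 (5.42 ± 1.97), Tuba1b (4.28 ± 2.07), Tuba1a (3.17 ± 1.19), and Tubb2b (0.311 ± 0.262). The ranges separated only the last pair there, but library by library Tuba4a was above Tuba1c in 19 of 19 (mean log2 ratio 1.13, SD 0.34) and Tuba1c above Tubb6 in 18 of 19, while the other 5 pairs kept their order in 10 to 14 of 19.

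The make-up of the summed alpha-tubulin per length is given as shares, with no test. Tuba4a made up 67.6% ± 5.09 in WT and 56.1% ± 7.28 in HNKO livers, Tuba1c 22.6% ± 3.72 and 25.7% ± 3.51, Tuba1b 6.34% ± 2.73 and 10.3% ± 4.91, and Tuba1a 3.45% ± 0.929 and 7.86% ± 3.61 (SD, n = 19 each). Of the beta-tubulin, Tubb2a made up 36.6% ± 11.7 and 34.2% ± 8.84, Tubb4b 30.1% ± 4.35 and 27.3% ± 3.60, Tubb5 28.9% ± 7.96 and 32.7% ± 7.02, Tubb6 4.43% ± 1.26 and 5.47% ± 1.47, and Tubb2b 0.0565% ± 0.0580 and 0.298% ± 0.201. These shares depend on the length too, since with unique 51-base stretches the share of Tuba1a was 7.64% in WT and 15.2% in HNKO livers and that of Tuba4a 53.5% and 39.8%.

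The tubulins also varied together from mouse to mouse, with the deviations of WT and HNKO livers pooled. After subtraction of each group's mean, Tuba1a, Tubb2b, Tubb5, and Tubb6 had Pearson r of 0.66 to 0.81 with each other (6 pairs, 38 libraries), and Tuba1c, Tubb2a, and Tubb4b of 0.71 to 0.85 (3 pairs), while the 12 pairs between these sets had -0.27 to 0.45. The sets were formed after the values were seen, and the correlations are a description. At day 6 Tuba1a, Tubb2b, Tubb5, and Tubb6 had SDs of 0.13, 0.05, 0.12, and 0.05 log2 CPM in WT livers. In HNKO livers these SDs were 0.36, 1.38, 0.35, and 0.55. They were wider in HNKO livers at the other days too, except for Tubb6 at day 12 (0.24 in WT and 0.19 in HNKO). The r values of this set thus rest largely on the spread among HNKO livers, and r within each genotype was not tested. The genes of a library share its depth and its RNA preparation, and some tubulins may share part of their reads. Tuba4a had r of -0.57 to -0.42 with the first set and of 0.16 to 0.65 with the second. The first set holds the 3 tubulins that rose in HNKO over the mean of the days and Tubb2b, and HNKO livers with much Tubb5, such as libraries 2, 29, and 37, also had much Tubb6, Tuba1a, and Tubb2b.

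**Figure D4:**
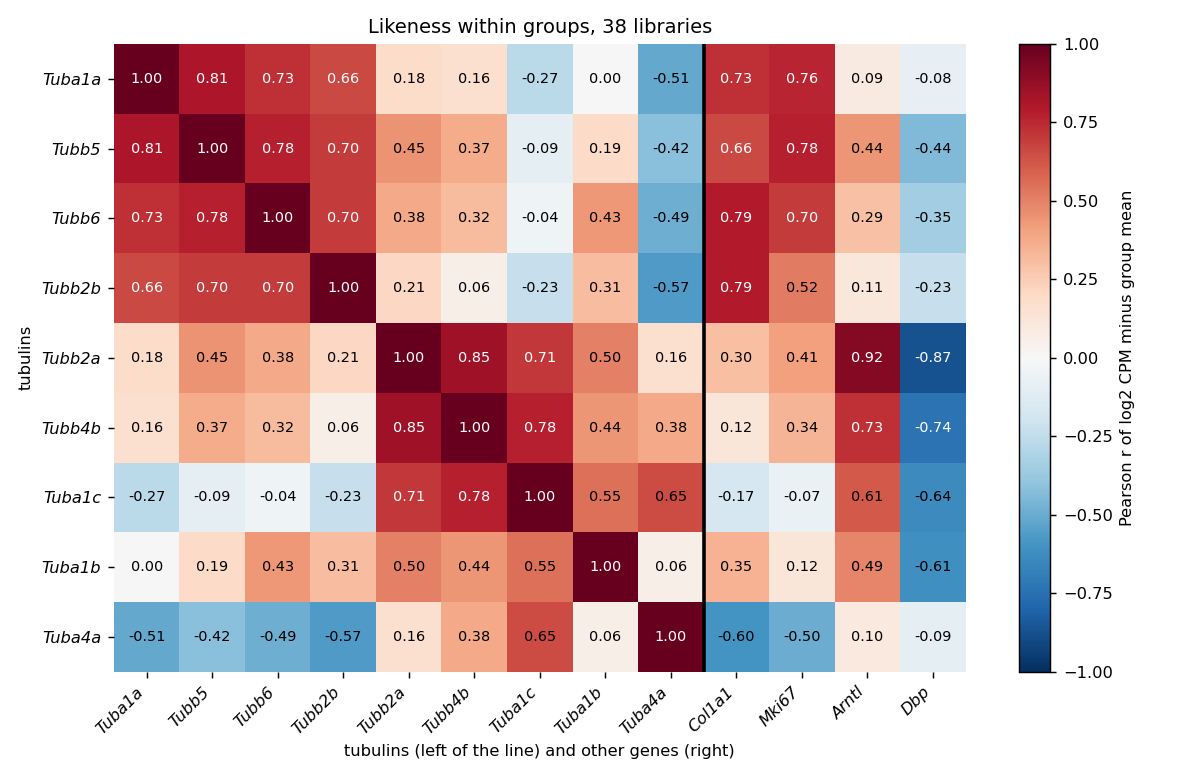
Pearson r between log2 CPM minus the group mean over 38 libraries, for the 9 tubulins and, right of the line, Col1a1, Mki67, Arntl, and Dbp (red positive, blue negative). Tuba1a, Tubb5, Tubb6, and Tubb2b form 1 block with 0.66 to 0.81, and Tubb2a, Tubb4b, and Tuba1c another with 0.71 to 0.85.

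Likeness was searched over 12484 genes that had a symbol and averaged 1 log2 CPM or more. The genes most like Tuba1a were Pcolce (r = 0.86), which promotes collagen processing, Pitpnm1 (0.85), and Sparc (0.85), a matrix glycoprotein. For Tubb2b they were Ltbp2 (0.87), Cpxm1 (0.86), and Cd63 (0.85), for Tubb5 Pea15a (0.91), Prcp (0.90), and Nid1 (0.88), a basement membrane protein, and for Tubb6 Piezo1 (0.86), Anxa2 (0.85), and Vim (0.85), the intermediate filament of mesenchymal cells. Those most like Tuba4a were Hdhd3 (0.77), Gbf1 (0.76), and Cyp2c29 (0.76), a hepatocyte cytochrome P450. For Tuba1b they were Rps14 (0.92), Ctnnb1 (0.91), and Sdcbp (0.90), and for Tuba1c they included Pikfyve (0.84) and Mcfd2 (0.82). Only group means were subtracted, so the difference of Tuba1b between the label series stayed in its deviations.

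Marker levels of other cell types moved with the same tubulins, again with the deviations of WT and HNKO livers pooled. Of the cholangiocyte markers, 6 of 6 were called higher in HNKO over the mean of the days, in which 36.4% of all genes were called, and their summed level was 34.3 to 48.8 CPM in WT and 107 to 754 in HNKO livers. Of the stellate cell and myofibroblast markers 6 of 7 were called higher, and their sum was 272 to 415 CPM in WT and 260 to 1100 in HNKO livers. Within groups the stellate sum had r of 0.75, 0.78, 0.72, and 0.82 with Tuba1a, Tubb6, Tubb5, and Tubb2b, and of -0.62 with Tuba4a, and the cholangiocyte sum of 0.59, 0.77, 0.75, 0.70, and -0.58 in the same order. The hepatocyte sum, with 3 of 7 markers lower over the mean of the days (Alb, Ttr, and Cyp2e1), a share near that of all genes, had r of -0.47, -0.60, -0.54, and -0.61 with these 4 tubulins and of 0.34 with Tuba4a. In library 29, the HNKO liver with the most Tubb5 (7.38 log2 CPM) and Tubb6 (4.62), the cholangiocyte sum was the highest and the hepatocyte sum the lowest of all 38 libraries. How far the cell types of each liver account for the tubulin differences was not tested.

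The sum of the neutrophil markers, at 0.478 to 2.32 CPM in WT and 0.609 to 23.3 in HNKO livers with 3 of 3 tested called higher, had r of 0.55, 0.57, 0.58, and 0.34 with Tuba1a, Tubb6, Tubb5, and Tubb2b and of -0.37 with Tuba4a. For the macrophage sum these were 0.26, 0.23, 0.45, 0.11, and -0.27, and for that of megakaryocytes and platelets 0.34, 0.48, 0.41, 0.41, and -0.33. Macrophage markers summed to 225 to 525 CPM in WT and 295 to 792 in HNKO livers (3 of 6 called higher over the mean of the days, Cd68, Csf1r, and Lyz2, beside the 36.4% of all genes), endothelial to 463 to 601 and 462 to 578 (Kdr lower, 1 of 6), and lymphocyte to 2.09 to 13.5 and 3.15 to 5.94 (0 of 5). Megakaryocyte and platelet markers summed to 3.73 to 7.32 and 2.99 to 9.65 CPM (Pf4 higher, 1 of 3 tested). Neuron markers summed to 16.2 to 36.9 in WT and 13.9 to 28.6 in HNKO livers with 0 of 3 tested called. Their sum had r of -0.15, -0.36, -0.35, -0.22, and -0.06 with Tuba1a, Tubb6, Tubb5, Tubb2b, and Tuba4a.

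Tubb2a went with the circadian clock gene Arntl, which encodes the activator BMAL1. Of 12484 genes Arntl was the most like Tubb2a (r = 0.92, Spearman's rho = 0.87, and r = 0.89 without the 2 libraries farthest from the median), followed by Rnf144a (0.92) and St5 (0.90). Dbp, a clock output gene that peaks in antiphase to Arntl, had r = -0.87. The sum of the neuron markers also ran opposite to Tubb2a (r = -0.88), Tubb4b (-0.74), and Tuba1c (-0.65). The 2 WT livers of day 6 with 4.37 and 3.93 log2 CPM of Tubb2a had 1.27 and 1.22 of Arntl, and the other 2, with 6.69 and 6.51, had 4.59 and 4.76. The 2 with little Tubb2a are of the earlier label series and the other 2 of the later one. Series and Arntl level therefore cannot be told apart in WT livers of that day. Over all libraries Tubb2a had a median of 5.08 in the earlier and 5.96 in the later series, and Tuba1c of 4.28 and 4.77. At day 12 WT library 16 had 4.11 of Tubb2a and 1.27 of Arntl, and the other 4 WT livers had 5.71 to 7.06 and 4.16 to 5.02. Tubb4b (0.73) and Tuba1c (0.61) had lower r with Arntl, and Tuba1a had 0.09. For Tubb4b the most alike genes were Lrfn3 (0.84), Als2cl (0.83), and Pnp (0.82). The hour at which mice were killed is not given in the sources used here, and Arntl itself was not called between genotypes at any day (0.06, -0.42, -1.04, and 0.22 at days 3, 6, 12, and 21, adjusted p = 0.974, 0.727, 0.253, and 0.915, edgeR).

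**Figure D5:**
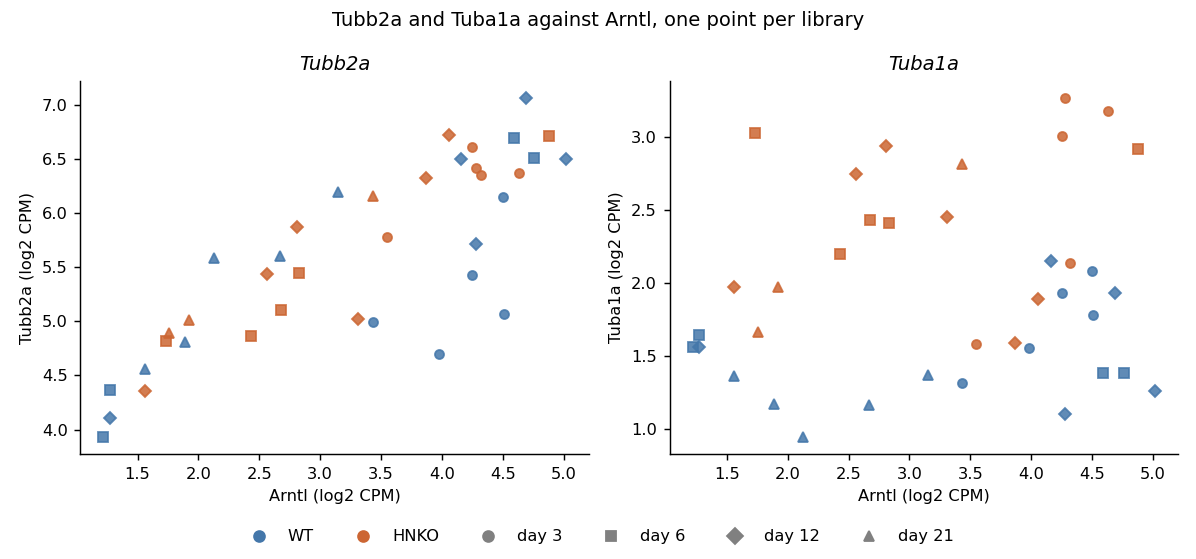
Level (log2 CPM) of Tubb2a, left, and Tuba1a, right, against that of Arntl, 1 point per library, WT in blue and HNKO in orange, with the day by symbol. Tubb2a climbs with Arntl in both genotypes (r = 0.92 within groups, 38 libraries), whereas Tuba1a differs between genotypes at like levels of Arntl (r = 0.09).

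With the level of Arntl as a covariate, an alternative added after the values were seen, 5 of the 8 tubulins other than Tubb2b were called at day 3 in place of 3, while the share of all genes called rose from 4.66% to 7.82%. The additions were Tubb2a (0.93, adjusted p = 0.00466) and Tubb4b (0.56, adjusted p = 0.0185), both higher in HNKO (edgeR). Arntl was also the gene most like Tubb2a in these libraries, so the p-values of Tubb2a with this covariate are no independent test. At day 12 the same covariate gave 1 call among these 8, Tubb5, with 16.5% of all genes called. Over the mean of the days it added calls of Tuba1b (0.63, adjusted p = 0.0115) and Tubb2a (0.29, adjusted p = 0.0244, edgeR), with 40.4% of all genes called. The promoters of 3 beta-tubulins are shown as the 250 bases before the RefSeq start (GRCm38.p6), 5′ to 3′ on the minus strand, on which all 3 genes lie. Capitals mark the E-box CACGTG to which BMAL1 and its partner bind, the cyclic AMP response element TGACGTCA, the CCAAT box, and the TATA box TATAAA, each searched on both strands. The windows are chr13:34078009-34078258 for Tubb2a, chr2:25224703-25224952 for Tubb4b, and chr17:35838302-35838551 for Tubb5.

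Tubb2a: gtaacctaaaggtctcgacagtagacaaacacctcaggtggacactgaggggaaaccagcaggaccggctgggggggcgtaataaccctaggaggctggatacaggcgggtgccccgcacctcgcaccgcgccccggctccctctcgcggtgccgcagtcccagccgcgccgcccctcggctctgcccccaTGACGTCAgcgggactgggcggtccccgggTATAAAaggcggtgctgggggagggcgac
Tubb4b: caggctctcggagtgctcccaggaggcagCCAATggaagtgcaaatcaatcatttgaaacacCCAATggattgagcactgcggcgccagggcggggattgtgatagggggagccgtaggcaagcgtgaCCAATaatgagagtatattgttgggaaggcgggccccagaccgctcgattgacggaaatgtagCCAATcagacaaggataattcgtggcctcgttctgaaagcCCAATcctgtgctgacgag
Tubb5: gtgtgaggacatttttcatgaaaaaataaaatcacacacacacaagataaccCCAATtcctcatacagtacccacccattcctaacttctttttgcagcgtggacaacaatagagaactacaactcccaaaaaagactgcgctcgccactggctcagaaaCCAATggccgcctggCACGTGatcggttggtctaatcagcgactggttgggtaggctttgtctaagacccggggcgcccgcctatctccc

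Tubb2a, which followed Arntl most closely, had no CACGTG in this window, 1 TGACGTCA, and 1 TATAAA. Tubb5, which had r = 0.44 with Arntl, had 1 CACGTG and 2 CCAAT, and Tubb4b had 5 CCAAT. Among 32851 promoters of this length CACGTG was found in 6.02%, TGACGTCA in 1.55%, CCAAT in 33.85%, and TATAAA in 12.37%. Of the other tubulins with a promoter entry, Tuba1a and Tuba1c had 1 CCAAT each and Tuba1b and Tuba4a none of these motifs. A match is a match of letters and no more.

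Further tubulin genes of the same family were counted as a list of 11, of which 8 were tested. Over the mean of the days 3 were called higher in HNKO, 1 lower, where 36.4% of all genes were called, and without Tubb3 and Tubb4a, both of them among the 3, this leaves 2 of 6, Tuba8 higher and Tubd1 lower. The list had a median log2 fold change of 0.12 against -0.01 for all genes, but this median includes Tubb3 and Tubb4a and is not taken as a result. Tubb3, the beta-tubulin used as a marker of neurons, had 0 to 2 counts in WT libraries, with 10 of 19 at 0, and 0 to 56 in HNKO libraries. It passed the filter on low counts only through HNKO livers (0 of 19 WT and 8 of 19 HNKO libraries reached the minimum), and its calls are not counted as results. Tuba8 was called at day 3 (1.89, adjusted p = 0.0295, edgeR). Tubb4a, a brain isotype, passed the filter only through HNKO livers as well (2 of 19 WT and 16 of 19 HNKO libraries at or above the minimum), and its call at day 6 is likewise set aside. Tubg1, the gamma-tubulin of the centrosome, was not called at any day (-0.28 to 0.05).

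The machinery that folds tubulin showed no call at any day, when 4.66%, 12.8%, 7.82%, and 3.12% of all genes were called at days 3, 6, 12, and 21. Of 22 genes of the chaperonin CCT, prefoldin, and the tubulin cofactors, 0 were called at each of these days, with medians of -0.03, -0.06, -0.08, and 0.04, and over the mean of the days Tbcb and Tbcd were called higher and 6 lower, among them Tcp1, a CCT subunit (-0.11, adjusted p = 0.024, edgeR). These 8 of 22 are the same share as that of all genes called, 36.4%. None of the 3 genes of tubulin mRNA autoregulation was called at a day or over the mean of the days, with Ttc5 at 0.02, 0.16, 0.15, and 0.24, Scaper at -0.08 to 0.10, and Cnot11 at -0.22 to 0.15. Of the enzymes that modify tubulin, 19 of 21 were tested and 0 were called at a day. Over the mean of the days, in which 36.4% of all genes were called, 6 of 19 were. Ttll12, Vash1, and Vash2 were higher and Atat1, the tubulin acetyltransferase, and the deacetylases Hdac6 (-0.11, adjusted p = 0.0106) and Sirt2 (-0.18, adjusted p = 0.0155, edgeR) lower.

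Of 32 tested genes of microtubule binding and dynamics, 4 were called at day 3, all higher (4.66% of all genes), 5 higher and 2 lower at day 6 (12.8%), 1 and 1 at day 12 (7.82%) and again at day 21 (3.12%), and 12 and 5 over the mean of the days (36.4%, list median 0.03). Map1b rose by 1.15 at day 3 and 1.63 at day 6 (adjusted p = 0.0204 and 0.00111, edgeR), Map1s by 0.71 at day 3 and 0.50 at day 12 (adjusted p = 0.0108 and 0.0428), and Clip2, a protein of growing microtubule ends, by 0.86 at day 3 and 0.84 at day 6 (adjusted p = 0.0281 and 0.0221). Map7, which recruits kinesin to microtubules, fell by 0.35, 0.37, and 0.35 at days 6, 12, and 21 (adjusted p = 0.00982, 0.0067, and 0.0483), and Mapt, which encodes tau, by 0.76 at day 6 (adjusted p = 0.00207). Of the primary cilium 11 genes were listed, and all were tested. Called were 3, 3, 2, and 2 of them at days 3, 6, 12, and 21, all higher (4.66%, 12.8%, 7.82%, and 3.12% of all genes). Bicc1 and Pkhd1 were called at all 4 days and Pkd2 at days 3 and 6. Over the mean of the days 4 were called higher and 2, Ift20 and Ift52, lower (36.4% of all genes). Bicc1 and Pkhd1, which are expressed in bile ducts, rose by 1.37 to 1.87 and by 0.44 to 0.80, while Ift20, of the transport machinery within cilia, was not called at any day (-0.31 to -0.09).

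The 15 genes of proliferation were all called higher over the mean of the days, where 36.4% of all genes were called (median 1.43, against -0.01 for all genes). By day, 0, 2, 0, and 4 of 15 were called at days 3, 6, 12, and 21, beside 4.66%, 12.8%, 7.82%, and 3.12% of all genes. Top2a was called at days 6 and 21 (1.65 and 2.26, adjusted p = 0.0418 and 0.0214, edgeR). Within groups the proliferation marker Mki67 had r of 0.76, 0.78, 0.70, and 0.52 with Tuba1a, Tubb5, Tubb6, and Tubb2b and of -0.50 with Tuba4a, and the collagen gene Col1a1 had 0.73, 0.66, 0.79, 0.79, and -0.60 in the same order. At day 3, HNKO libraries 4 and 22, which were low in Tuba1a and Tubb6, had 3.68 and 2.94 log2 CPM of Col1a1 and 2.85 and 2.61 of Mki67, against 5.19 to 6.46 and 5.53 to 5.96 in the other 3 HNKO livers of that day.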

How the data were processed

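The authors aligned 51-bp paired-end reads to GRCm38 with STAR 2.7.2b and used featureCounts 1.6.4 with the GENCODE annotation M22, keeping fragments of which both ends aligned. The deposited table holds these counts, not normalized, with 0 columns of no mapped sample. Groups come from the labels, and 2 libraries described as failed in quality control were left out, which leaves 38. Total counts of 16151037 to 64181492 per library and 3 to 6 mice a group set the precision.

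Counts were filtered with filterByExpr (minimum count 10, minimum total 15, proportion 0.7) and fitted with a term for each group of genotype and day (edgeR 4.0.16, R 4.3.3, legacy dispersion, TMM). Standard errors are those the F statistic implies. P-values were adjusted over 20297 genes. No 2 libraries of a group were alike within counting error (74 pairs, chi-square per degree of freedom 12.5 to 152). In simulated counts of 19867 genes, edgeR recovered 92.5%, 95.5%, 98%, and 93.8% of genes changed by 2 on the log2 scale at days 3, 6, 12, and 21. False calls made up 5.13%, 3.54%, 2.97%, and 1.32% of its calls there. Recovery of differences under 2, such as those of the tubulins other than Tubb2b, was not tested.

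Members and lists were chosen with earlier results of these data known. Named genes are the 9 tubulins, of each list up to 3 higher and 3 lower genes called at the most days and up to 3 not called with the highest counts, the marker genes, and the 3 genes with a symbol most like each tubulin, of which 1 is not reported here. Genes called over the mean of the days, Stk16, Arntl, Dbp, Col1a1, and Mki67 were named after their values were seen. Positions, lengths, and transcripts are of GENCODE M21 on GRCm38, promoters of RefSeq. Alternatives were RLE factors, DESeq2 1.42.0, other filters and dispersions, all 40 libraries, fewer groups, a covariate for the label series or Arntl, and the omission of single libraries. The Arntl covariate and the length in unique 51-base stretches were added after the data were seen.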

Additional observations from a re-analysis of the deposited data

Results flagged for a closer look

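Among 63 pairs of a tubulin and a group of 4 to 6 libraries, no library stood apart from the rest of its group by Dixon's criterion, which chance would meet in about 1 of 20. The 2 HNKO libraries of day 21 that failed in quality control entered only the alternative with all 40 libraries, and some of their tubulins were above the highest WT library of that day. In library 18 Tuba1a was at 2.74 log2 CPM against 1.38, Tuba1b at 3.40 against 3.17, Tubb5 at 6.66 against 6.34, and Tubb6 at 3.82 against 3.22. In library 17 Tubb5 was at 6.58 against 6.34. Others were not above WT. Tubb2b, with 5 to 41 counts in the 3 HNKO libraries used at day 21, had 0 and 1 counts in libraries 17 and 18, inside the WT range. Tuba1a (0.88) and Tuba1b (-2.13) of library 17 were below every WT library, and so was Tuba4a in both (6.39 and 5.96 against 6.48 to 6.90). These levels were computed over all 40 libraries, and no explanation was tested.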

How the results depend on the processing

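No paired analysis was possible because the library numbers are not shared between groups. Of 78 recomputed counts of called tubulins 62 stayed within 1.5 times. These counts are over all 9, with Tubb2b, which passed the filter only through HNKO livers and was the only tubulin called at day 21. The 3 calls at day 3 became 1 with only the groups compared and 6 with Arntl, the 5 at day 6 became 3 with only the groups compared (without Tubb5, and without Tubb2b, which did not pass the filter), and the 0 at day 12 became 1 (Tuba4a) with only the groups compared and 2 with Arntl. The 1 at day 21 became 2 with DESeq2, with the label series, or with only the groups compared (Tuba1a and Tuba4a, without Tubb2b), 3 with all 40 libraries, and 0 with at least 10 counts in every library, a filter that removes Tubb2b. The 0 for the day effect in WT became 1 with Arntl, and the 1 in HNKO became 2 with DESeq2 or all 40 libraries, 3 with the label series, and 0 with no filter or Arntl. Leaving out each library gave 0 to 4 calls at day 3, 3 to 5 at day 6, 0 to 1 at day 12, 0 to 3 at day 21, 5 to 6 over the mean of the days, 0 to 0 for WT days, 0 to 2 for HNKO days, and 0 to 0 for the interaction.

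Of 432 fold changes 399 kept direction and side of the threshold, 6 lost a call (with only the groups compared Tuba1a and Tubb6 at day 3 and Tubb5 at day 6, with all 40 libraries Tuba1a at day 3 and Tuba4a at day 6, and with no filter Tuba4a at day 6), 17 gained one, and 10 reversed, none of them called. With Arntl these were Tubb2a at day 6 (0.05), day 12 (0.28), and day 21 (-0.08) and Tuba1c at day 12 (0.11). With the label series they were Tuba1b (-0.17), Tuba1c (-0.19), Tubb2a (-0.37), and Tubb4b (-0.06) at day 21 and Tuba1c over the mean of the days (-0.03), and with all 40 libraries Tubb2a at day 21 (-0.16). Leaving out 1 library also reversed Tuba4a at day 3 (-0.18 to 0.18), Tubb2a at day 6 (-0.75 to 0.18), Tubb4b at day 6 (-0.16 to 0.06), Tuba1c at day 12 (-0.33 to 0.10), Tubb2a at day 21 (-0.50 to 0.28), Tubb4b at day 21 (-0.01 to 0.18), and Tuba1c (-0.01 to 0.09) and Tubb2a (-0.05 to 0.18) over the mean of the days. With unique 51-base stretches as length, WT shares were 7.64% for Tuba1a, 13.2% for Tuba1b, 53.5% for Tuba4a, 18.4% for Tubb5, and 2.91% for Tubb6. The causes were not tested. Tubb2b, with 0 to 14 counts in WT libraries, is the tubulin most limited by depth, and some of the calls gained at days 3 and 12 were of Tubb2b.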
